A study of Drosophila melanogaster with 6 samples.

Results

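Cytoplasmic ribosomal protein genes encode the protein components of the ribosome that translates nuclear-encoded mRNAs. They were taken by symbol, as every gene whose name begins with RpL or RpS followed by a digit or by P, together with sta, which encodes a small subunit protein. The mRpL and mRpS genes of the mitochondrial ribosome were not included. This gave 93 of the 17612 genes in the deposited table, with 54 genes of the large (60S) subunit and 39 of the small (40S) subunit. The rule uses names alone and no measured value.

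The study sequenced poly-A RNA of leg discs, the larval epithelia from which the adult legs of Drosophila melanogaster form, with 20 discs of third-instar larvae pooled per library. The labels give a wild type group (WT) and a group named Double, each of 3 libraries, all from flies raised at 25 °C. The design text describes the mutant discs as carrying a PRE deletion. A PRE is a Polycomb response element, a DNA stretch that recruits Polycomb repressors, and the comparison asks which genes differ in level when such elements are missing. Neither the locus nor the number of deleted elements is named, and no strain, sex or further allele is given for either group. The labels do not say whether replicates are separate crosses, so a p-value here measures the spread among the 6 libraries, which may be partly technical.

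Each ribosome needs its proteins in nearly equal numbers, and cells keep their production matched through shared promoter features, through translation under TOR control and through degradation of unassembled protein. In Drosophila, heterozygous loss of many ribosomal protein genes gives the Minute phenotype of slow growth and thin bristles, and Minute cells in imaginal discs are outcompeted by wild type neighbours. Several of the genes have a second copy, often used mainly in the germline. Poly-A RNA levels measure the mRNAs only, not ribosomes or their rate of translation. In RNA from whole discs, fewer cells of a type and less RNA per cell cannot be told apart.

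Library totals ranged from 8818943 to 13605668 counts, and 8802 genes had enough counts to be tested. Leg disc identity genes were present in every library. Sums of the 16 markers were 4072.4 to 4092.9 CPM (counts scaled to library size) in WT and 3929.5 to 4015.7 CPM in Double. The range over all libraries was 1.04-fold. Single markers differed more: 5 of the 16 had an unadjusted p under 0.05 in edgeR's quasi-likelihood test, where 12.3% of all tested genes did. The limb selector Dll had a log2 fold change of 0.24 (SE 0.08, edgeR adjusted p 0.2922). The marker dac, a nuclear regulator of the intermediate leg segments, was lower in Double (log2 fold change -0.53). For dac the adjusted p in edgeR was 0.003869, and 0.05363 without Double replicate 3. Sums over markers of neighbouring tissues varied more. The 13 fat body markers summed to 344.9 CPM for WT replicate 1, against 4967.6 to 7050.6 CPM for the other WT libraries and 3460.7 to 13818.3 CPM in Double. The 13 salivary gland markers summed to 11.4, 85.2 and 3686.4 CPM for WT replicates 1, 2 and 3, and to 1335.2 to 3816.4 CPM for Double. No fat body or salivary gland marker passed an adjusted p under 0.05, and none of either list was at 0 in every library. Haemocyte markers summed to 1220.3 to 1386.1 CPM in WT and 1082.7 to 1197.7 CPM in Double, with 0 of 8 past the threshold. Much of that sum was Ppn, at 698.9 to 849.6 CPM in WT and 681.0 to 817.2 CPM in Double. All 8 haemocyte markers had a log2 fold change below 0 (median -0.35), where 49.9% of all tested genes did. An unadjusted p under 0.05 in edgeR was seen for 2 of the 8, where 12.3% of all tested genes had one. Muscle markers summed to 52.7 to 74.6 CPM in WT and 25.9 to 51.4 CPM in Double, with 2 of 9 called lower, and neuron and glia markers to 95.8 to 239.7 and 80.8 to 144.9 CPM, with 0 of 7. WT replicate 1 had the lowest sum of both lists, far below all others for fat body and next to WT replicate 2 for salivary gland, and values without it are given where the results rest on it.

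The ribosomal protein mRNAs were among the most abundant in the discs, and the large majority of the genes were in use. Of the 93 genes, 85 were tested, 50 of the 60S and 35 of the 40S subunit. Of these, 80 had a mean of at least 300 CPM, from 304.5 to 3693.9 CPM. The 5 tested genes under that level were RpL34a, RpL24-like, RpS15Ab, RpLP0-like and RpS19b, of which RpL34a was the highest at 248.9 CPM. The 8 genes with too few counts were RpL10Aa, RpL22-like, RpL37-2, RpL7-like, RpS10a, RpS28-like, RpS28a and RpS5b, each a second copy or a similar gene of an abundant one. RpL10Aa, RpL7-like, RpS28a and RpS28-like had 0 counts in all 6 libraries. For counting error only, this allows up to 0.0453 CPM (3 counts over the 6 libraries). Exons of RpL7-like overlap those of CG34164 on the same strand, and exons of RpS28-like those of CG3769. How reads in such overlaps were counted is unknown, so the limit may not hold for RpL7-like and RpS28-like. The genes are spread over the genome: 19 of the 93 lie on chromosome arm 2L, 21 on 2R, 14 on 3L, 23 on 3R, 15 on X and 1, RpS3A, on chromosome 4. None lies within 1 Mb of dac.

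Levels of different genes were compared only per kilobase, as mean CPM divided by the median length of the gene's annotated transcripts. On this scale 77 of the 100 highest genes in the discs were ribosomal protein genes. The median of the abundant 60S genes in WT was 2324.5 CPM per kb and that of the 40S genes was 2355.9 CPM per kb. Over the 80 abundant genes, the WT level per length at the 90th percentile was 1.67 times that at the 10th. The genes named next are the ends of the 66 abundant genes without a second copy. RpL41, which encodes the smallest ribosomal protein with 25 codons and no more than a short basic helix, stood far above the rest at 11796.9 CPM per kb in WT. Next came RpL23 at 3420.4 CPM per kb, RpS23 of the decoding centre at 3372.2 CPM per kb, RpL27A at 3353.1 CPM per kb and RpS27A, a fusion of ubiquitin with a 40S protein, at 3325.5 CPM per kb. The order among these 4 is not resolved, since their levels lie closer together than the choice of transcript length moves RpS23 (2764.0 CPM per kb with all exons joined, 4323.5 CPM per kb with its shortest transcript). At the low end of the 66 were RpS6, the substrate of S6 kinase, at 1764.8 CPM per kb, RpL35A at 1749.2 CPM per kb and RpL37A at 1670.4 CPM per kb. Exons of RpS6 overlap those of CR33222 on the same strand, and exons of RpS27A those of Ip259. How reads in these overlaps were counted is unknown and could shift both levels. RpL5, a partner of the 5S rRNA, and RpL38, a classical Minute locus, were the lowest of these 66 genes at 1605.3 and 1029.9 CPM per kb. Both have long alternative transcripts, and with the shortest transcript they read 2370.4 and 1815.9 CPM per kb.

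**Figure D1:**
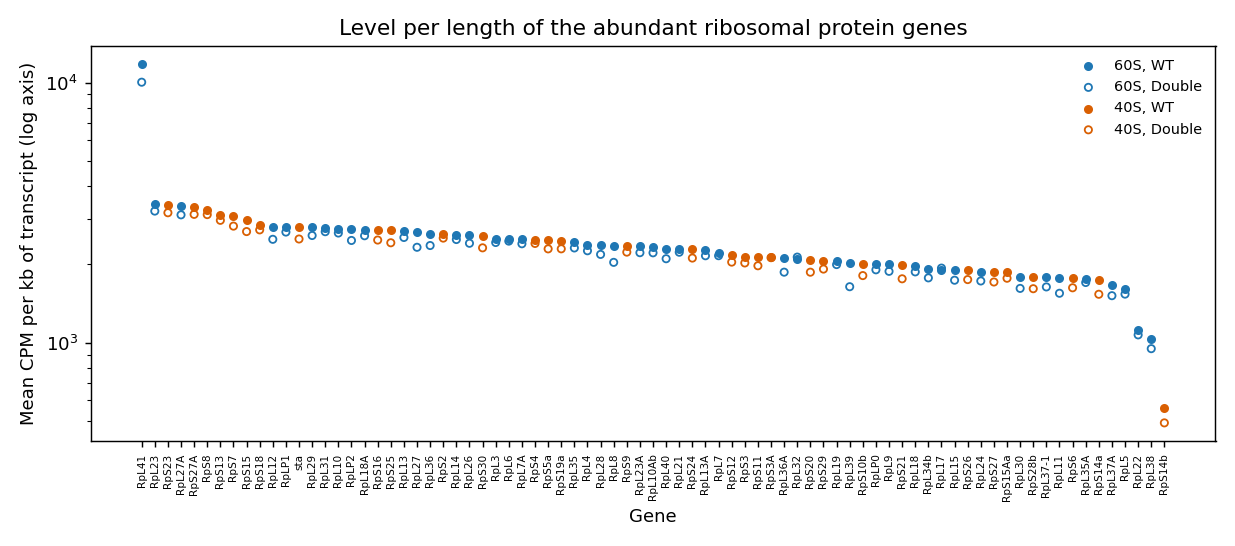
Mean level per kilobase of median annotated transcript (CPM per kb, log axis) for 79 of the abundant ribosomal protein genes, in order of the WT level, with filled points for WT and open points for Double (means of 3 libraries, colours by subunit). RpL41 lies far above the others at 11796.9 CPM per kb, and most genes fall in a narrow band around the medians of 2324.5 (60S) and 2355.9 CPM per kb (40S).

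In Double, ribosomal protein mRNAs were slightly lower than in WT, by less than the spread between libraries allows to be called for any one gene. No ribosomal protein gene passed an adjusted p under 0.05 in edgeR's quasi-likelihood test (0 of 85), where 1.49% of all tested genes did. DESeq2 called 1 of the 85, RpL39, and limma-voom called 0. At an unadjusted p under 0.05 there was 1 gene of the 85, again RpL39, where 12.3% of all genes fell under that value. The median log2 fold change over the 85 genes was -0.10, a difference of -6.96%, against 0.00 over all tested genes. It was -0.08 for the 60S and -0.11 for the 40S genes. The log2 fold change was below 0 for 82 of the 85, where 49.9% of all tested genes were below 0. These genes vary together between libraries, so their number does not stand for that many separate measurements.

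The size of change that the data leave room for was small. The standard error of the log2 fold changes had a median of 0.09, and the abundant genes ran from -0.31 to 0.02. For 84 of the 85 genes the 95% interval lay within a 1.5-fold change in either direction, where 65.9% of all tested genes had such an interval. The exception was RpS19b, a germline copy near 1 CPM, with an interval of -1.69 to 1.2. By chromosome arm the medians of the abundant genes ran from -0.12 on X to -0.08 on 3L, with 14 to 17 genes per arm. RpS3A, alone on chromosome 4, had a log2 fold change of 0.00 (SE 0.07, interval -0.17 to 0.17). The 29 abundant genes with snoRNA genes inside their span, up to 14 in RpS5a, had a median of -0.09 and the 51 without had a median of -0.10.

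**Figure D2:**
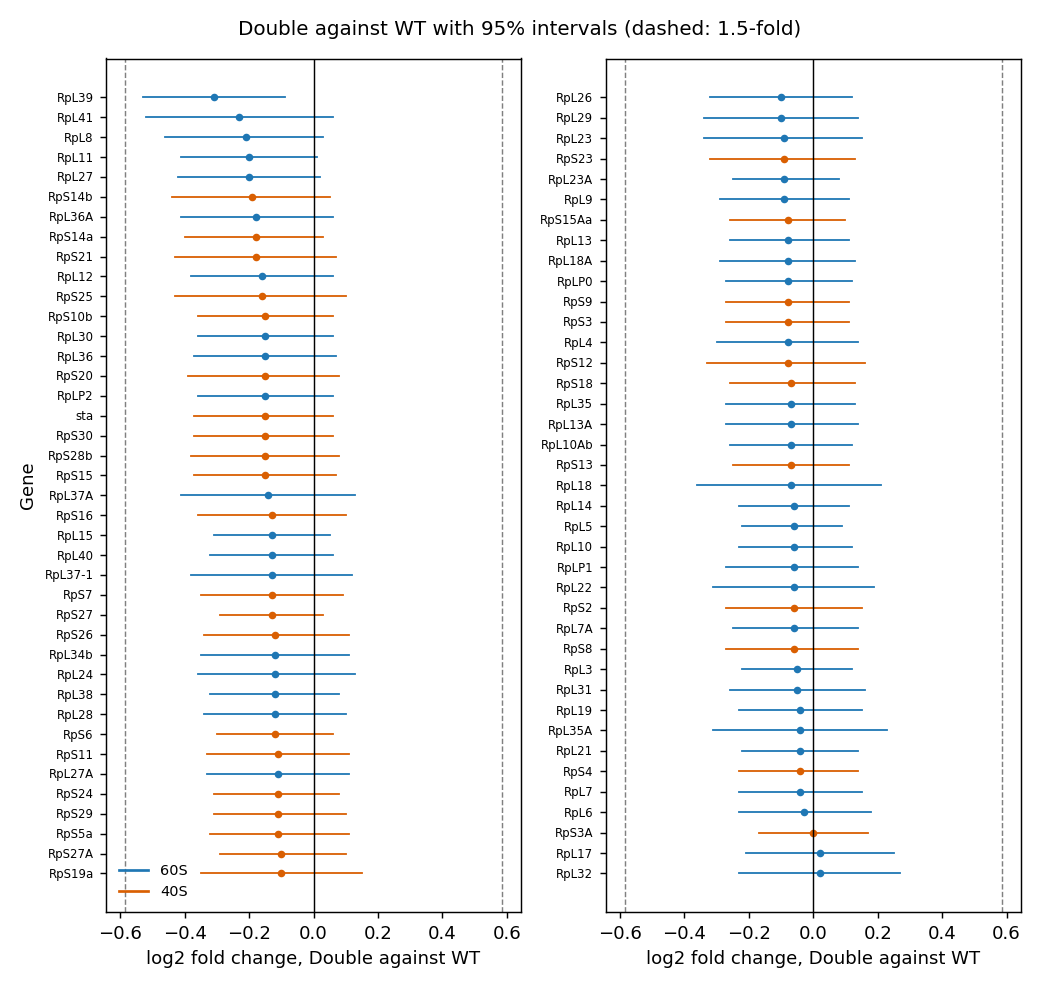
Log2 fold change of Double against WT (x axis) for 79 of the abundant ribosomal protein genes (y axis), with 95% intervals from edgeR's quasi-likelihood fit on 3 libraries per group. Points run from -0.31 (RpL39) to 0.02 (RpL32), and every interval lies between the dashed lines at a 1.5-fold change.

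Most of the median difference rested on WT replicate 1. It was the highest of the 6 libraries for 78 of the 80 abundant genes, with a median log2 difference of 0.27 from the mean of the other 5 libraries. Over all tested genes that median was 0.01, and 26.9% of them were highest in WT replicate 1. WT replicate 2 was the highest for the other 2 genes. The lowest library was WT replicate 3 for 27 genes, Double replicate 1 for 30 and Double replicate 3 for 23. WT replicate 3 thus lay at the level of the lower Double libraries, with a median difference of -0.11 against -0.11 in Double replicate 1 and -0.09 in Double replicate 3, while WT replicate 2 (0.02) and Double replicate 2 (0.03) lay close together. Without WT replicate 1 the median log2 fold change of the ribosomal protein genes was -0.01, with 32 genes above 0 and 54 below. Leaving out any other library gave medians from -0.182 to -0.089.

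**Figure D3:**
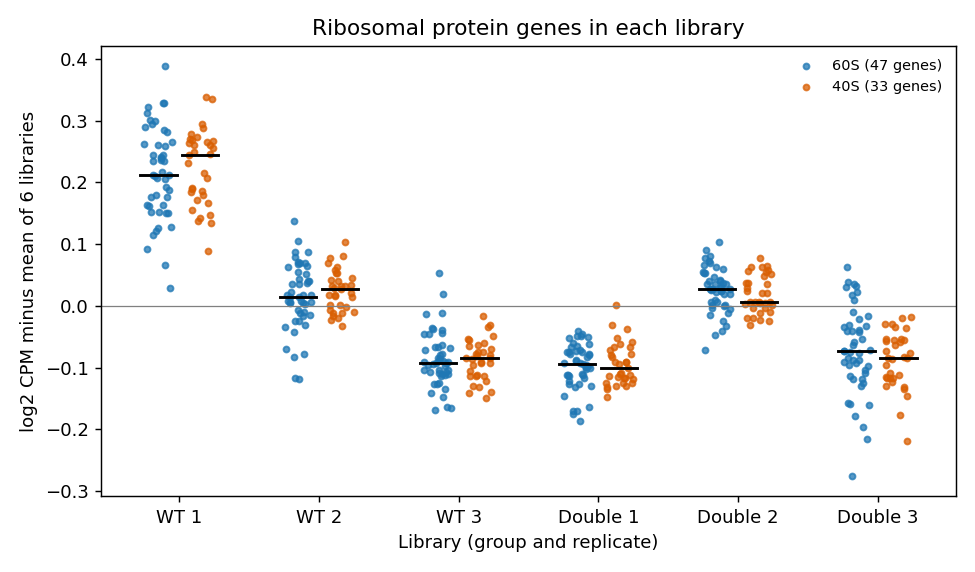
Log2 CPM of each abundant ribosomal protein gene minus its mean over the 6 libraries (y axis), by library (x axis), with 47 60S genes in blue, 33 40S genes in orange and black lines at the medians. Nearly the whole set is raised in WT replicate 1, and the remaining 2 WT libraries overlap with the 3 Double libraries.

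The same pattern appeared in the share of all counts that fell on the 93 genes. In WT it was 16.1% in replicate 1, 14.1% in replicate 2 and 13.2% in replicate 3. In Double it was 12.8%, 14.1% and 13.3% in replicates 1, 2 and 3. The groups overlap, at 14.5% ± 1.46 (SD, n = 3) in WT and 13.4% ± 0.628 (SD, n = 3) in Double, and the difference of -1.06 percentage points became -0.26 without WT replicate 1. When counts on fat body and salivary gland markers were left out of the total, the difference was -0.99 percentage points. The balance of the subunits was steadier than the total: 40S counts were 0.6904, 0.69 and 0.6863 times the 60S counts in WT and 0.6885, 0.6845 and 0.6794 times in Double. These ratios overlap between the groups, and they differ by little between WT replicate 1 and the other WT libraries.

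Transcript length moved with the difference. Ribosomal protein mRNAs are short, with median annotated lengths from 288 to 1512 bases and a middle value of 708 bases over the 93 genes. Across the 80 abundant genes, the log2 fold change rose with log2 length (Pearson's r 0.45, Spearman's rho 0.38), the elevation in WT replicate 1 fell with it (r -0.43, rho -0.39), and the difference of Double replicate 3 from the other 5 libraries rose with it (r 0.51, rho 0.45). For the other 4 libraries rho lay between -0.04 and 0.09. The 10 shortest of them had a median log2 fold change of -0.15 and the 10 longest one of -0.08. Across 550 other genes of at least 300 CPM the same 3 relations had rho of 0.57, -0.68 and 0.58, with weaker r of 0.26, -0.18 and 0.20. In these 550 genes the other 4 libraries also had positive rho, from 0.15 (WT replicate 2) to 0.4 (WT replicate 3), with r from 0.05 to 0.09. These are correlations across genes that share the same 6 libraries, and genes are not independent replicates. Of 67 other abundant genes no longer than the longest ribosomal protein mRNA, 73.1% were raised in WT replicate 1, with a median of 0.13 against 0.27 for the ribosomal protein genes and -0.09 for 483 longer genes. The median log2 fold changes of the 3 classes were -0.06, -0.10 and 0.05 in the same order of shorter others, ribosomal protein genes and longer others. The part that length, or the low fat body and salivary gland signal of WT replicate 1, has in the lower median of ribosomal protein mRNAs in Double was not tested.

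**Figure D4:**
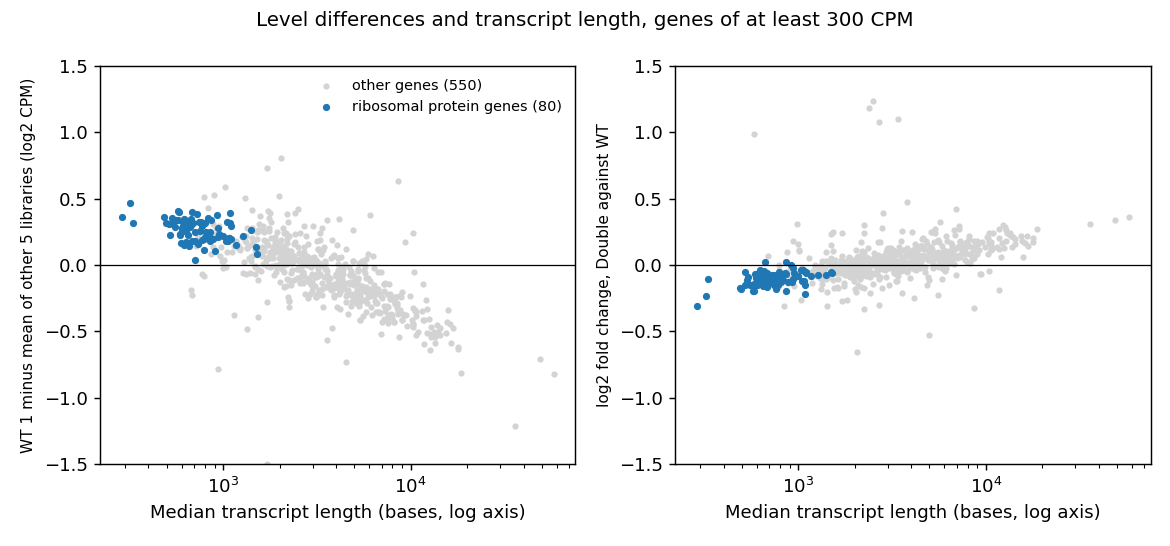
Left, log2 CPM in WT replicate 1 minus the mean of the other 5 libraries, and right, log2 fold change of Double against WT, both against median transcript length (bases, log axis), for 80 ribosomal protein genes (blue) and 550 other genes (grey) of at least 300 CPM. Shorter genes tend to lie higher in WT replicate 1 and lower in Double, with the ribosomal protein genes at the short end. Axes stop at 1.5, which leaves out 8 other genes on the left and 2 on the right.

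RpL39 had the smallest p of the set. It encodes a small protein of 51 codons that lines the tunnel through which the new peptide leaves the 60S subunit. RpL39 (FBgn0023170) spans 24061853 to 24062431 of chromosome arm 2R on the minus strand (dm6 coordinates), and the ends of its last exon and that of RpL12, on the opposite strand, overlap by a few bases. Its level was 646.1, 563.4 and 543.9 CPM for the WT libraries (replicates 1 to 3, here and in what follows), and 460.6, 524.0 and 432.9 CPM for the Double libraries. The highest Double library was below the lowest WT library, which held for 1 of the 85 genes, where 9.11% of all tested genes had that order. No ribosomal protein gene had all Double libraries above all WT libraries, where 10.3% of all tested genes did. RpL39 was 19.2% lower in Double (log2 fold change -0.31, SE 0.10, interval -0.53 to -0.09), with an adjusted p of 0.2288 in edgeR. DESeq2 gave it an adjusted p of 0.04066, and over all alternatives the adjusted p of RpL39 for a difference from 0 ranged from that value to 0.5957. RpL39 is also the shortest of the tested mRNAs, at 288 bases. RpL12, its overlapping neighbour and a component of the factor-binding stalk base, had a log2 fold change of -0.16 (SE 0.10).

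Other 60S genes at the lower end were RpL41, RpL8, RpL11 and RpL27. RpL41, the next shortest at 320 bases, read 4528.6, 3425.1 and 3371.3 CPM for WT and 3075.3, 3532.8 and 3021.7 CPM for Double. Its groups overlap, because Double replicate 2 lay above 2 of the WT libraries (log2 fold change -0.23, SE 0.13, edgeR adjusted p 0.5039). RpL8, a protein next to the peptidyl transferase centre, read 2975.7, 2489.0 and 2227.6 CPM for WT and 2100.4, 2295.3 and 2231.8 CPM for Double. WT replicate 3 fell among the Double values (log2 fold change -0.21, SE 0.11). RpL11, which binds the 5S rRNA together with RpL5, read 1736.5, 1484.1 and 1384.6 CPM for WT and 1303.6, 1390.4 and 1316.7 CPM for Double. Here 1 Double library lay above the lowest WT library (log2 fold change -0.20, SE 0.09, edgeR adjusted p 0.4274). RpL27, another 60S protein, had a log2 fold change of -0.20 (SE 0.10). RpL5 itself had a log2 fold change of -0.06 (SE 0.07).

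The stalk proteins, which recruit the GTPase translation factors, had small negative values. RpLP0 had a log2 fold change of -0.08 (SE 0.08), RpLP1 one of -0.06 (SE 0.09) and RpLP2 one of -0.15 (SE 0.09). RpL40, the 60S protein made as a ubiquitin fusion, was at -0.13 (SE 0.08), and RpS27A, its 40S counterpart, at -0.10 (SE 0.08). RpL38 was at -0.12 (SE 0.09). None of these 6 genes had an unadjusted p under 0.05 in edgeR.

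A positive log2 fold change was seen for 2 abundant genes, both of the 60S subunit. RpL32, widely used as a reference gene in fly quantitative PCR under the name rp49, read 1644.6, 1286.7 and 1245.2 CPM for WT and 1335.2, 1476.5 and 1426.3 CPM for Double. RpL17 read 1886.1, 1549.5 and 1454.1 CPM for WT and 1568.7, 1711.5 and 1675.8 CPM for Double. In both, WT replicate 1 was the highest library and the 3 Double libraries lay above the other WT libraries, which gave log2 fold changes of 0.02 (SE 0.11) and 0.02 (SE 0.10). Without WT replicate 1 these were 0.16 for RpL32 (unadjusted p 0.02087, adjusted p 0.2507 in edgeR) and 0.14 for RpL17 (unadjusted p 0.03838, adjusted p 0.3129). Without WT replicate 2 they were -0.03 and -0.02, and without WT replicate 3 both were -0.06.

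Of the 35 tested 40S genes 34 had a log2 fold change below 0, and 0 had an unadjusted p under 0.05 in edgeR. The difference between the subunits was not tested. sta, whose yeast counterparts are needed for 40S maturation, read 3421.5, 2924.1 and 2714.8 CPM for WT and 2611.9, 2848.2 and 2691.0 CPM for Double, with overlap (log2 fold change -0.15, SE 0.09). RpS6 read 2052.4, 1849.7 and 1802.4 CPM for WT and 1671.4, 1849.4 and 1731.9 CPM for Double, again with overlap (log2 fold change -0.12, SE 0.08). RpS12, through which Minute cells are sensed in competition in Drosophila, was at -0.08 (SE 0.11), and at 0.04 without WT replicate 1. The classical Minute loci RpS3 and RpS13 had log2 fold changes of -0.08 (SE 0.08) and -0.07 (SE 0.08). The lowest p among the abundant 40S genes was that of RpS14a, with a log2 fold change of -0.18 (SE 0.09, edgeR adjusted p 0.4791).

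To remove the shift shared by the set, each gene was also read as a percentage of the summed counts of the 93 genes. This removed most of the spread: the coefficient of variation over the 6 libraries had a median of 3.12% for the shares of the 80 abundant genes against 9.36% for their CPM, and 68 of the 80 shares varied by less than 5%. On this scale 9 of 85 genes (10.6%) had all Double shares below all WT shares, where 4.78% of all tested genes did. All Double shares lay above in 11 of 85 (12.9%), the same as the 12.9% of all tested genes. Dividing by the sum of the set centres the set near 0 and shifts the other genes upward. On the CPM scale 1 of 85 genes (1.18%) had all Double libraries below all WT libraries, where 9.11% of all tested genes did. Because the share scale is built from the set itself, neither share count is read as a result about the ribosomal protein genes. RpL39 made up 0.401%, 0.4% and 0.416% of the total in WT and 0.354%, 0.371% and 0.328% in Double. Those groups do not overlap (log2 ratio -0.21), and WT replicate 1 no longer stands apart. RpL11 held 1.08%, 1.05% and 1.06% in WT and 1.00%, 0.984% and 0.997% in Double, also without overlap (log2 ratio -0.10). RpL8 (log2 ratio -0.11) and RpL27 (-0.10) had the same order. On the high side RpL32 held 1.02%, 0.914% and 0.953% in WT and 1.03%, 1.04% and 1.08% in Double (log2 ratio 0.13). RpL17 (0.12) and RpS3A (0.09), a 40S protein near the mRNA exit, were likewise higher without overlap. When the summed counts were used as library sizes in edgeR, an alternative added after the data were seen, 0 of the 85 genes passed the threshold and 0 had an unadjusted p under 0.05. In that fit the median of all genes moved to 0.09.

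Second copies were read as a percentage of the counts of the pair, a measure in which library scaling cancels. Whether reads matching both copies were dropped or given to either is unknown, so shares of near-identical pairs are uncertain. The symbols gave 13 families with 27 genes. RpS14a and RpS14b are adjacent copies on the X chromosome, and RpS14b took 20.4%, 18.4% and 20.2% of the pair in WT and 19.1%, 19.8% and 19.8% in Double. These values overlap (exact two-sided permutation p = 1.0). RpL34a took 16.2% ± 0.362 (SD, n = 3) of its pair with RpL34b in WT and 16.6% ± 0.475 (SD, n = 3) in Double (exact permutation p = 0.4). RpS15Ab took 7.36%, 6.84% and 7.27% of its pair with RpS15Aa in WT and 7.84%, 7.98% and 7.47% in Double. All 3 Double values lay above all 3 WT values (exact two-sided permutation p = 0.1, the smallest that 3 against 3 allows). The level of RpS15Ab itself had a log2 fold change of 0.05 (SE 0.09) and that of RpS15Aa one of -0.08 (SE 0.08).

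A pair of the -like genes encodes assembly factors rather than ribosome components, going by the relatives Rlp24 and Mrt4 in budding yeast. RpL24-like read 129.2 to 158.8 CPM in WT and 138.6 to 152.7 CPM in Double, and it took 8.67% ± 0.635 (SD, n = 3) of the counts with RpL24 in WT and 9.23% ± 0.41 (SD, n = 3) in Double (exact permutation p = 0.2). RpLP0-like read 58.6 to 68.5 CPM in WT and 55.4 to 59.7 CPM in Double, at 2.45% ± 0.0644 (SD, n = 3) and 2.35% ± 0.116 (SD, n = 3) of the counts with RpLP0 (exact permutation p = 0.2). Both pairs overlap between the groups.

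The copies known from the germline were near the detection limit. RpL22-like, used mainly in the testis, had 59 counts in WT and 20 in Double, at 2.51, 1.81 and 0.815 CPM for WT and 0.517, 0.814 and 0.497 CPM for Double. Its share of the counts with RpL22 was 0.177%, 0.153% and 0.0749% in WT and 0.0485%, 0.0668% and 0.0397% in Double, without overlap (exact two-sided permutation p = 0.1, the smallest possible). RpL22-like had too few counts for the fit, and the abundant RpL22 had a log2 fold change of -0.06 (SE 0.11). RpS19b had 39 counts in WT and 32 in Double, and RpS5b had 26 and 22, with shares of at most 0.0859% and 0.0616% of their pairs. RpS10a had 6 counts in all, each of them in Double, and RpL37-2 had 1. The 7 germline markers summed to 4.98 to 5.53 CPM in WT and 2.32 to 3.88 CPM in Double, and the 2 that could be tested went opposite ways. The log2 fold change was -2.37 for piwi, which somatic gonad cells also use (edgeR adjusted p 0.05686), and 1.70 for vas, a germ cell helicase (edgeR adjusted p 0.3031). Their part in the level of RpL22-like was not tested.

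**Figure D5:**
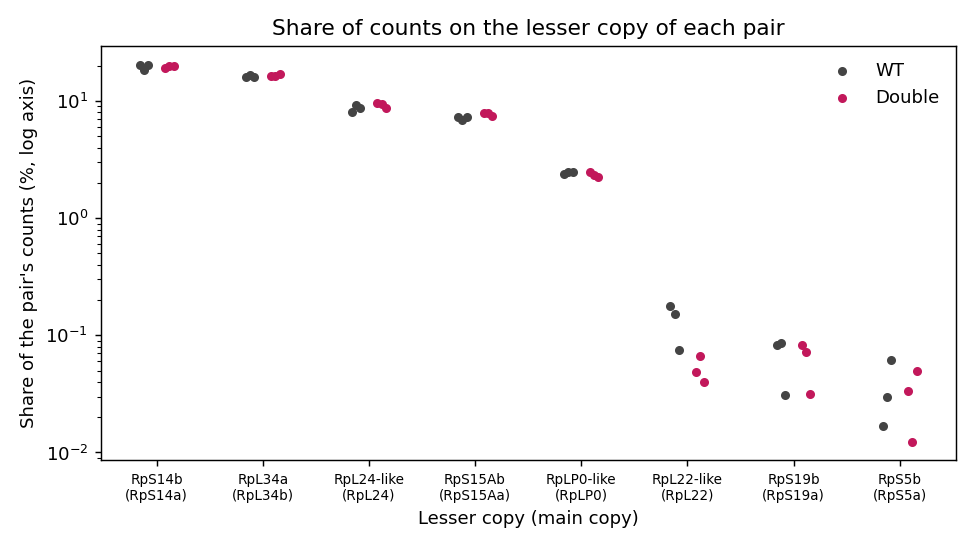
Percentage of the counts of each pair that fell on the lesser copy (y axis, log axis), for 8 lesser copies with their main copy in brackets (x axis), with 3 WT (grey) and 3 Double (magenta) libraries as points. Shares run from near 20% (RpS14b) to under 0.1% (RpS19b, RpS5b). Of these 8, the groups separate for RpS15Ab and RpL22-like alone. For both the exact permutation p is 0.1, the smallest that 3 against 3 allows, and RpL22-like is near the detection limit.

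Genes that work with the ribosomal proteins were read in lists, beside the shares over all tested genes. Of all tested genes 1.49% passed the threshold in edgeR, and 12.3% had an unadjusted p under 0.05. A list of 40 genes held translation factors together with mRNAs of the TOP kind, a class whose translation responds to TOR. Of these 40 genes 0 passed the threshold in edgeR and 2 had an unadjusted p under 0.05, with a median log2 fold change of -0.03. Those were the initiation factor subunit eIF2beta (-0.18, SE 0.07) and the cap-binding protein eIF4E1 (0.15, SE 0.06). Of 40 ribosome biogenesis genes 1 rose and 0 fell, with 3 at an unadjusted p under 0.05 and a median of -0.01. The gene that rose was Polr1D, a subunit shared by RNA polymerases I and III, which read 13.5 to 16.5 CPM in WT and 22.0 to 26.0 CPM in Double. Its groups were apart (log2 fold change 0.73, SE 0.12, edgeR adjusted p 0.02896). The adjusted p of Polr1D was 0.0149 without WT replicate 1 and from 0.06663 to 0.1578 without any other library, above the threshold. With the replicate number as a block it was 0.05113. Surf6, a nucleolar protein, was at -0.25 (SE 0.08, edgeR adjusted p 0.2212).

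Among 21 genes of TOR and Myc growth control 0 passed the threshold and 0 had an unadjusted p under 0.05 in edgeR, with a median log2 fold change of 0.07. The smallest p belonged to the transcription factor foxo (0.19, SE 0.09) and the kinase Pdk1 (-0.13, SE 0.06). The response to ribosomal protein loss, which in Minute cells runs through Xrp1 and the stress kinase PEK, was covered by 16 tested genes. None passed the threshold in edgeR, 2 had an unadjusted p under 0.05, and the median was -0.01. PEK read 136.0, 138.8 and 139.1 CPM for WT and 159.9, 163.0 and 159.3 CPM for Double, without overlap (log2 fold change 0.22, SE 0.05, edgeR adjusted p 0.1186). GstD1, an oxidative stress reporter raised in Minute cells, read 638.6 to 811.3 CPM in WT and 563.6 to 579.4 CPM in Double, without overlap (log2 fold change -0.31, SE 0.09, edgeR adjusted p 0.2232). The 8 factors that act at ribosomal protein gene promoters had a median of 0.06, with 0 past the threshold and 0 at an unadjusted p under 0.05 in edgeR.

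The mitochondrial ribosomal proteins served as a comparison set for another ribosome. Of 72 tested genes 0 passed the threshold in edgeR and 4 had an unadjusted p under 0.05, where 1.49% and 12.3% of all tested genes did. The median log2 fold change of the 72 was -0.06. It was below 0 for 48 of the 72, where 49.9% of all tested genes were below 0. The summed level of the mitochondrial set was 2099.1, 1890.6 and 1768.6 CPM for WT and 1836.0, 1945.4 and 1832.7 CPM for Double. WT replicate 1 was the highest library here too. The difference between the mitochondrial and the cytoplasmic set was not tested.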

How the data were processed

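The authors deposited whole-number counts per gene, not normalized, from strand-specific poly-A libraries sequenced as 150-base paired ends, per the labels' protocols. The build is dm6 and the tools listed are HTSeq, STAR 2.7.0 and DESeq2, per the submitters' processing notes. Strand setting and treatment of reads matching several genes are not given in the sources read; 25 of the genes overlap exons of an opposite-strand gene and 6 those of a same-strand gene, and their counts could be mixed. Symbols and lengths came from Ensembl release 115 (17540 of 17612 identifiers matched).

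All libraries were fitted with edgeR 4.0.16 (R 4.3.3) and its quasi-likelihood test, with TMM factors (0.9874 to 1.0109), filterByExpr, robust dispersions, group as the only term and Benjamini-Hochberg adjustment over 8802 genes. The common biological coefficient of variation was 20.4%. CPM are scaled by effective library size, errors are SD, and SE is the absolute log2 fold change divided by the square root of F. Replicates of a group differed beyond sampling noise, with a chi-square of 9.49 to 38.8 per degree of freedom. In data simulated for Double against WT over 8802 genes, 32.8% of 1.5-fold and 70.3% of 2-fold changes were called, and 5.23% of calls were false. Alternatives used DESeq2 1.42.0 and limma 3.58.1, with other scalings and filters. Figures used matplotlib 3.10.9.

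The members, lists and tests were chosen with earlier results of these data known, and 5 list names were respelled to the annotation. Genes were named by p, size of change, level per length, second copy or textbook role; others were chosen after their values were seen. In the counts and medians 1 further gene is included that is not reported here by name. A planned search of promoter letters was not run, since no genome sequence was used here.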

Additional observations from a re-analysis of the deposited data

How the results depend on the processing

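The count of ribosomal protein genes past the threshold was 0 under every alternative run except DESeq2, which called 1 (RpL39). Over all genes 131 were called, against 293 with DESeq2, 33 in a test against a 1.5-fold change, 54 at an adjusted p under 0.01, 83 with the summed ribosomal protein counts as library size (an alternative added after the data were seen) and 46 to 157 with 1 library left out (46 without Double replicate 3, 64 without WT replicate 2, 67 without Double replicate 1, 69 without Double replicate 2). The median log2 fold change of the ribosomal protein genes stayed between -0.116 and -0.096 under RLE factors, library totals, TMM factors without these genes, both filters, DESeq2, limma-voom and the block, and between -0.182 and -0.010 with 1 library left out. The number of them with an unadjusted p under 0.05 was 1 in the main fit, 21 without WT replicate 3 and 0 to 3 without any other library. With all libraries it was 7 of 85 with DESeq2, 5 of 89 with no count filter and 0 to 2 under the remaining settings. With the replicate number as a replicate block, 166 genes and 0 ribosomal protein genes were called, with a median of -0.097; same-numbered libraries had correlations of -0.07, -0.25 and 0.39, so the numbers were not taken as pairs. The difference in the share of counts ranged from -1.69 to -0.26 percentage points with 1 library left out.

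Of 42 named genes, 15 changed the sign of the log2 fold change with some library left out, and none under the other scalings, filters, tools or the block. The fit with the summed ribosomal protein counts as library size is apart from this, since it reads each gene relative to the set: there 42 of the 85 genes were above 0 and 43 below, and 17 of the 42 named had the other sign. The ranges with 1 library left out were RpL17 -0.06 to 0.14, RpL22 -0.15 to 0.05, RpL23 -0.19 to 0.02, RpL24 -0.21 to 0.02, RpL24-like -0.10 to 0.06, RpL32 -0.06 to 0.16, RpL34a -0.16 to 0.02, RpL35A -0.12 to 0.11, RpL37-1 -0.22 to 0.01, RpL37A -0.23 to 0.00, RpL7 -0.10 to 0.03, RpS12 -0.18 to 0.04, RpS15Ab -0.03 to 0.12, RpS19a -0.19 to 0.03 and RpS19b -0.63 to 0.13. Of the 22 sign changes, 12 came without WT replicate 1. The cause was not tested. Counts limit RpL22-like, RpS5b, RpS10a, RpL37-2 and RpS19b, for which differences of the size of their spread are not detectable at this depth.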
